A study of Homo sapiens with 12 samples.

Results

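The thioredoxin system and the core of the NRF2 pathway were followed through 12 RNA-seq libraries as a set of 10 genes, all of which were found by symbol among the 36486 rows of the gene count table. NRF2, encoded by NFE2L2, is a transcription factor that KEAP1 holds in the cytoplasm and delivers to the ubiquitin ligase CUL3 for degradation. Modification of reactive cysteines in KEAP1 by electrophiles or oxidants lets NRF2 build up, enter the nucleus with small MAF partners and bind antioxidant response elements near its target genes. The thioredoxin system passes electrons from NADPH through thioredoxin reductase (TXNRD1) to thioredoxin (TXN), which reduces protein disulfides and peroxiredoxins such as PRDX1. Sulfiredoxin (SRXN1) repairs over-oxidized peroxiredoxins, and TXNIP, an alpha-arrestin, binds thioredoxin and holds it inactive. NQO1, a quinone reductase, OSGIN1, an oxidative stress response protein, and AKR1C1, an aldo-keto reductase, are widely used readouts of NRF2.

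The study sought compounds that return wild-type activity to mutant p53. TOV-112D, a line from an ovarian adenocarcinoma whose endogenous p53 is mutant, was treated for 3 h with the vehicle DMSO, with UCI-1001 or with its analog UCI-1014 (n = 2 libraries each). In UCI-1014 a methoxy group stands in place of what the study calls the nitroxy group of UCI-1001. UCI-1001 was given at 10 µM, and no dose of UCI-1014 for the sequenced cells is given in the sources used here. Saos-2, an osteosarcoma line without functional p53, was compared as p53-null parental cells and as cells with wild-type p53 delivered by a lentiviral, doxycycline-inducible construct (n = 3 libraries each). The labels give 16 h of induction for both. The sources used here do not say whether replicates came from separate cultures, so the p-values below measure the spread between libraries, which may be technical.

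Library totals ran from 17762027 to 24629558 counts. Levels are given as CPM, counts scaled to the TMM-adjusted library size. Replicate 1 of p53-null and replicate 1 of p53-WT stood apart: the chi-square per degree of freedom against the other libraries of their group was 24.6 to 41.3, and 3.95 and 3.19 between replicates 2 and 3. In TOV-112D it was 2.11 to 3.91, where 1 would be sampling noise alone. Markers went partly against the labelled tissues, but few genes carried the sums. The 7 epithelial markers summed to 2.81 to 4.49 CPM in TOV-112D and to 743 to 1137 CPM in Saos-2. KRT18 was at 0 in all 6 TOV-112D libraries, and KRT8 and KRT18 carried most of the Saos-2 sum. EPCAM (1.76 to 3.00 against 0 to 0.105 CPM) and CDH1 were higher in TOV-112D, and PAX8 was higher in Saos-2. The 7 osteoblast markers summed to 53.9 to 58.8 CPM in TOV-112D and 27.3 to 52.5 CPM in Saos-2. COL1A1 (45.5 to 49.1 CPM) carried most of the TOV-112D sum, whereas SPP1 was higher in Saos-2 (14.1 to 46.8 against 0 to 0.609 CPM). The 5 leukocyte and 4 endothelial markers summed to at most 3.25 and 3.22 CPM in any library.

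In TOV-112D cells, UCI-1001 raised 4 of the 9 members that passed the filter on low counts (NFE2L2, TXNRD1, SRXN1 and OSGIN1) and lowered none, where 15.7% of the 14177 genes tested were called, 9.39% higher and 6.36% lower. UCI-1014 raised 6 of the 9 (these 4 with NQO1 and AKR1C1) and lowered TXN, where 47.1% of all genes were called, 23.7% higher and 23.4% lower. A gene was called at an edgeR adjusted p under 0.05. Where groups are said below not to overlap, this only describes the libraries. Members that were not called, such as KEAP1, showed it too, and its share over all genes was not counted. The tenth member, TXNIP, was listed at 0 and was not tested. A log2 fold change above 1 in size beside the call was met by 1 member with UCI-1001 and by 5 with UCI-1014, against 1.3% (1.18% higher) and 5.49% (4.51% higher) of all genes. The 9 members had a median log2 fold change of 0.33 under UCI-1001 and 1.04 under UCI-1014, while the median of all genes was 0.0016 and -0.016. The UCI-1001 median is the value of AKR1C1, a gene with few reads that was not called (edgeR adjusted p = 0.729). The members were chosen with earlier results of these data known, so their contrast with all genes is no independent support. Both comparisons share the DMSO libraries and are therefore not independent of each other. With all 12 libraries in one fit, which takes its spread also from Saos-2, the calls were TXNRD1 alone for UCI-1001, where 1.95% of the 15794 genes in that fit were called, and NFE2L2, TXNRD1, SRXN1 and OSGIN1 for UCI-1014, where 21.7% were.

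**Figure D1:**
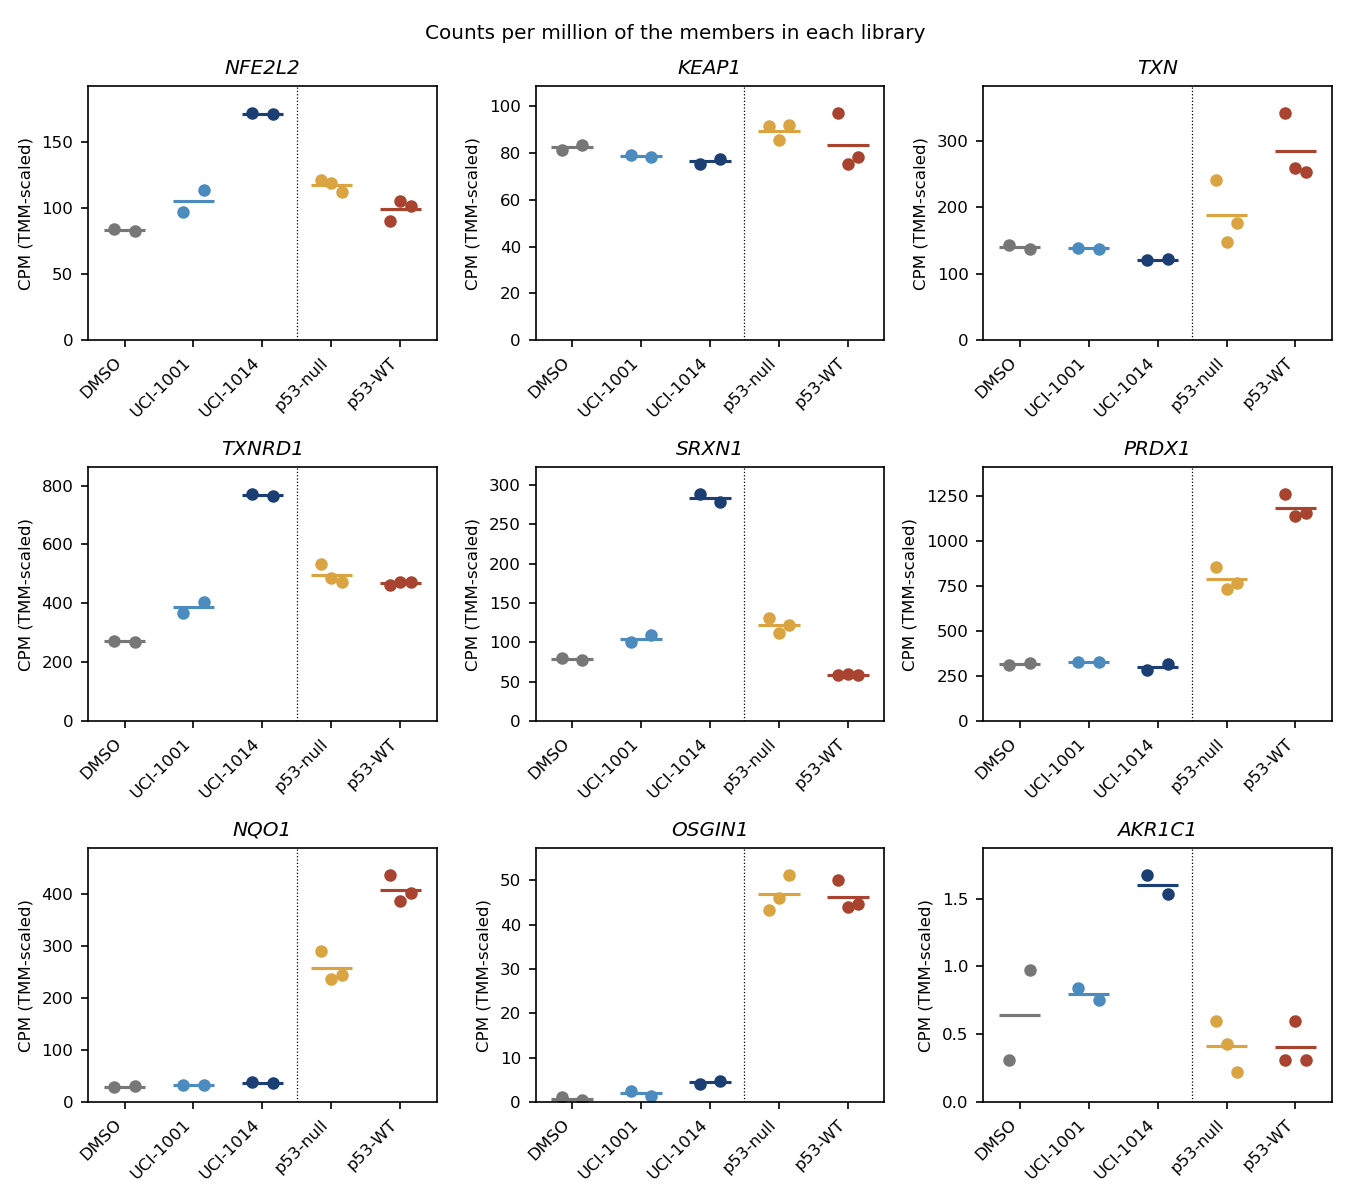
CPM (vertical axes, linear and starting at 0, TMM-scaled within each cell line) of 9 members in each library, by group; points are libraries, bars are group means and the dotted line parts TOV-112D (left) from Saos-2 (right). NFE2L2, TXNRD1 and SRXN1 step up from DMSO through UCI-1001 to UCI-1014, whereas SRXN1 in p53-WT lies below all p53-null libraries.

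NFE2L2 (ENSG00000116044, chr2:177218667-177392756 on GRCh38, minus strand) stood at 84.1 and 82.8 CPM in the DMSO libraries, at 97.4 and 113.6 CPM with UCI-1001 and at 172.0 and 171.5 CPM with UCI-1014. Every treated library lay above both DMSO libraries, and both UCI-1014 libraries lay above both UCI-1001 libraries. UCI-1001 raised the transcript by 0.34 ± 0.061 on the log2 scale (SE, edgeR adjusted p = 0.00157), and UCI-1014 by 1.04 ± 0.059 (adjusted p = 3.22e-09), which is a 2.06-fold change. The rise with UCI-1001 missed the threshold in the fit of all 12 libraries (adjusted p = 0.202) and with limma on log2(TPM + 1) (adjusted p = 0.135). The most abundant NFE2L2 transcript in TOV-112D was NFE2L2-201, estimated at 30.9 and 28.2 TPM in DMSO, 34.96 and 38.3 TPM with UCI-1001 and 64.7 and 64.5 TPM with UCI-1014 (TPM, a transcript abundance that corrects for length).

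KEAP1 (ENSG00000079999, chr19:10486125-10503558, minus strand), the sensor and inhibitor of NRF2, was measured at 81.3 and 83.5 CPM in DMSO, 79.0 and 78.5 CPM with UCI-1001 and 75.4 and 77.5 CPM with UCI-1014. All treated libraries were slightly below the DMSO libraries, but neither difference was called. On the log2 scale UCI-1001 stood at -0.07 relative to DMSO (95% interval -0.17 to 0.04, edgeR adjusted p = 0.42) and UCI-1014 at -0.11 (-0.21 to -0.0026, adjusted p = 0.0869). The intervals hold no KEAP1 change as large as the rise of NFE2L2 under the same compound.

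Among the thioredoxin system proper, the reductase and sulfiredoxin rose while thioredoxin and peroxiredoxin did not. TXNRD1 (ENSG00000198431, chr12:104215779-104350307, plus strand) was counted at 273 and 269 CPM in DMSO, 368 and 404 CPM with UCI-1001 and 771 and 764 CPM with UCI-1014. The 3 groups did not overlap, and the means were 270.6 ± 2.93, 386 ± 25.3 and 767 ± 4.51 CPM (SD, n = 2 each). The log2 fold change over DMSO was 0.51 ± 0.043 for UCI-1001 (SE, edgeR adjusted p = 1.53e-06) and 1.504 ± 0.043 for UCI-1014 (adjusted p = 1.93e-12). TXNRD1 was the one member called with UCI-1001 in all 14 alternatives tried. Of all genes tested, 861 (6.07%) had a log2 fold change at least as high with UCI-1001 and 354 (2.5%) with UCI-1014.

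SRXN1 (ENSG00000271303, chr20:646615-653200, minus strand) went from 80.1 and 78.1 CPM in DMSO to 100.4 and 109.0 CPM with UCI-1001 and 288 and 279 CPM with UCI-1014. Again no library of one group reached into another. UCI-1001 raised it by 0.40 ± 0.050 on the log2 scale (SE, edgeR adjusted p = 6.6e-05), and UCI-1014 by 1.84 ± 0.047 (adjusted p = 5.62e-13), a 3.58-fold rise that 239 of the 14177 genes (1.69%) equalled or passed. The smaller rise missed the threshold in the fit of all 12 libraries (adjusted p = 0.059) and with limma on log2(TPM + 1) (adjusted p = 0.0512).

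TXN (ENSG00000136810, chr9:110243810-110256507, minus strand) was at 143 and 138 CPM in DMSO, 139.5 and 137 CPM with UCI-1001 and 121 and 122 CPM with UCI-1014. One UCI-1001 library lay between the DMSO libraries and the other just below them, and the UCI-1014 libraries lay below both. Under UCI-1001 its log2 fold change was -0.02 (95% interval -0.11 to 0.07, edgeR adjusted p = 0.797), and it fell by 0.21 on the log2 scale with UCI-1014 (adjusted p = 0.000669). That fall missed the threshold with all 12 libraries in one fit (adjusted p = 0.315). PRDX1 (ENSG00000117450, chr1:45510914-45542732, minus strand) held 312 and 322 CPM in DMSO, 330.2 and 329 CPM with UCI-1001 and 284 and 319 CPM with UCI-1014. Both UCI-1001 libraries lay above the DMSO libraries, one UCI-1014 library lay below the DMSO libraries and the other between them, and neither compound passed the test (log2 fold change 0.06, 95% interval -0.05 to 0.16, adjusted p = 0.489; and -0.07, -0.17 to 0.03, adjusted p = 0.249).

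TXNIP (ENSG00000265972, chr1:145992435-145996579, minus strand) was listed at 0 in 11 of the 12 libraries, and p53-WT replicate 3 held 1 count. A count of 0 allows up to 3 counts, which correspond to 0.132 to 0.179 CPM in these libraries, so no fold change is given. Of its 4 transcripts, 3 were listed at 0 in all 12 libraries and TXNIP-201 reached 0.054 TPM in p53-WT replicate 3. Whether these zeros reflect the cells or the transcript set used for quantification was not tested, so the limit holds for reads assigned to TXNIP and is no limit on its expression. For comparison, its relative ARRDC3 was measured at 4.90 and 6.06 CPM in DMSO and rose with both compounds (values are given with the related genes). Among 35116 RefSeq promoter windows of 250 bases before the start (GRCh38.p14), 16 (0.0456%) held 2 copies of CACGNG with 5 bases between them on either strand, the letters of the carbohydrate response element. TXNIP was the one member with such a pair, at 88 bases before its start, and the stretch chr1:145996644-145996673 (minus strand) is shown with the pair and its spacer in capitals:

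TXNIP: gatgtgCACGAGGGCAGCACGAGcctccgg

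Among the NRF2 targets, OSGIN1 and AKR1C1 had few reads in TOV-112D, and NQO1 had more. NQO1 (ENSG00000181019, chr16:69706996-69726668, minus strand) was at 28.6 and 29.9 CPM in DMSO, 33.2 and 33.0 CPM with UCI-1001 and 38.0 and 35.8 CPM with UCI-1014. The groups were ordered without overlap but close together. UCI-1014 raised it by 0.34 ± 0.070 on the log2 scale (SE, edgeR adjusted p = 0.00118; 0.1 in the fit of all 12 libraries), and the difference with UCI-1001 was 0.18 (95% interval 0.03 to 0.33, adjusted p = 0.104).

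OSGIN1 (ENSG00000140961, chr16:83931311-83966332, plus strand) had 20 and 8 counts in DMSO, 52 and 27 with UCI-1001 and 70 and 95 with UCI-1014. On the CPM scale these were 1.03 and 0.433, 2.58 and 1.36, and 4.18 and 4.86, again without overlap. It rose by 1.41 ± 0.42 on the log2 scale under UCI-1001 (SE, edgeR adjusted p = 0.0331) and by 2.61 ± 0.38 under UCI-1014 (adjusted p = 5.19e-05). The UCI-1001 call was lost in 6 of 14 alternatives, among them the fits without DMSO replicate 2 (log2 fold change 0.93, adjusted p = 0.259) and without UCI-1001 replicate 1 (0.87, adjusted p = 0.258), while that of UCI-1014 passed in all 14.

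AKR1C1 (ENSG00000187134, chr10:4963253-4983283, plus strand) was at the edge of detection, with 6 and 18 counts in DMSO, 17 and 15 with UCI-1001 and 28 and 30 with UCI-1014. UCI-1014 gave the 2 highest values (1.67 and 1.53 CPM), and the UCI-1001 libraries lay between the 2 DMSO libraries. The log2 fold change with UCI-1014 was 1.32 ± 0.45 (SE, edgeR adjusted p = 0.0266), a call that was lost in 6 of 13 alternatives. Without DMSO replicate 1 it was 0.72 (adjusted p = 0.258), and with UCI-1001 the value was 0.33 (adjusted p = 0.729). Its near-identical neighbour AKR1C2 had similarly few reads (0.662 ± 0.135 CPM in DMSO and 1.501 ± 0.242 CPM with UCI-1014, SD, n = 2 each, log2 fold change 1.17, edgeR adjusted p = 0.0247), and how reads were divided between the pair is uncertain.

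**Figure D2:**
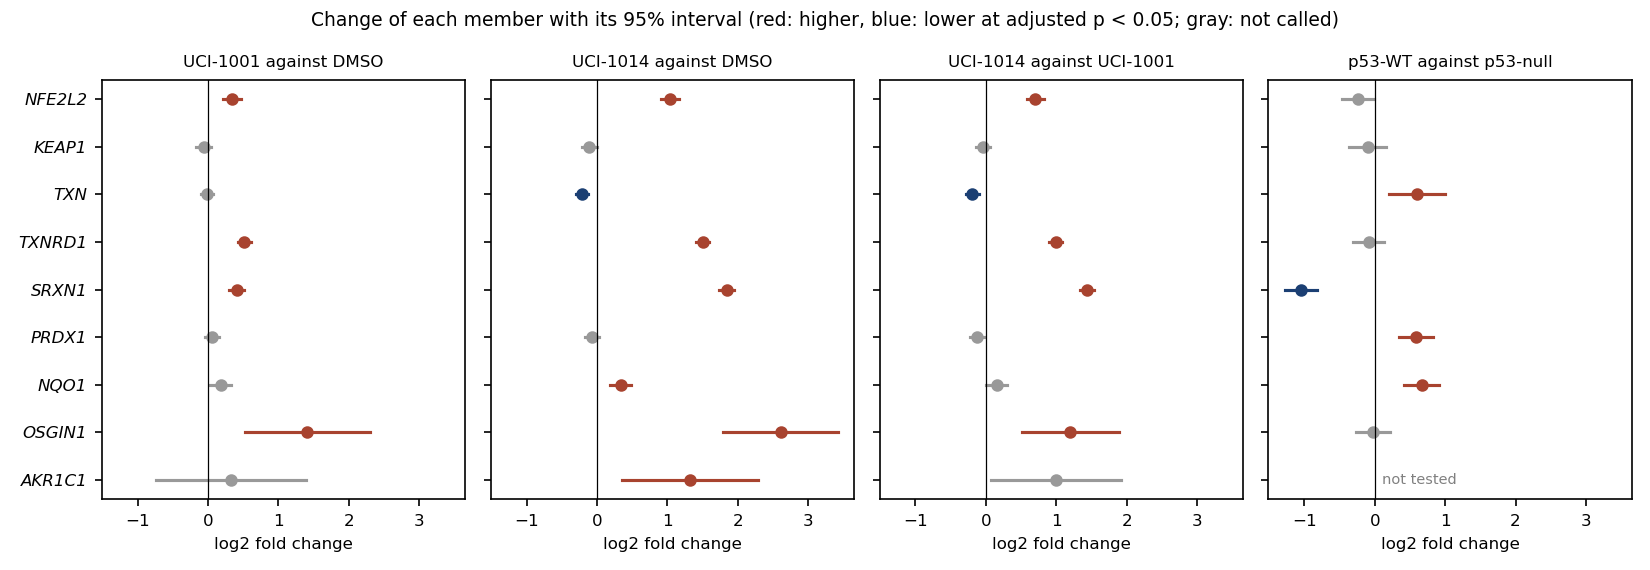
Log2 fold change (horizontal axis, shared by the panels) of each tested member in 4 comparisons; points are edgeR estimates, bars their 95% intervals, and colour marks calls at an adjusted p under 0.05. With UCI-1014 the 5 members NFE2L2, TXNRD1, SRXN1, OSGIN1 and AKR1C1 lie beyond 1, and SRXN1 is the one member below -1 in p53-WT.

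The 2 compounds, which differ by a methoxy in place of the group the study calls nitroxy, were compared directly in the same fit. This was 1 pair of compounds, and equal doses cannot be assumed. UCI-1014 stood higher than UCI-1001 for 4 of 9 members and lower for TXN, where 31.1% of all genes differed, 17.1% higher and 13.9% lower. A log2 difference above 1 was met by 2 of the 9, as by 1.84% of all genes (1.54% higher). SRXN1 was 2.71-fold higher with UCI-1014 (log2 difference 1.44 ± 0.045, SE, edgeR adjusted p = 5.19e-11), TXNRD1 1.99-fold (0.99 ± 0.042, adjusted p = 6.29e-10) and NFE2L2 1.63-fold (0.70 ± 0.058, adjusted p = 5.18e-07). OSGIN1 differed by 1.20 (95% interval 0.51 to 1.89, adjusted p = 0.0109), a call lost in 3 of 14 alternatives: without UCI-1001 replicate 2 (0.83, adjusted p = 0.0753), without UCI-1014 replicate 2 (1.10, adjusted p = 0.0742) and with limma on log2(TPM + 1) (0.53, adjusted p = 0.0891). TXN was lower by 0.19, written as a log2 difference of -0.19 (adjusted p = 0.00268), a call lost in the fit of all 12 libraries (adjusted p = 0.553). For the rest no difference passed the test, and the intervals were -0.15 to 0.06 for KEAP1, -0.23 to -0.02 for PRDX1 (adjusted p = 0.0572), 0.01 to 0.30 for NQO1 (adjusted p = 0.103) and 0.07 to 1.92 for AKR1C1 (adjusted p = 0.0974).

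Transcripts of TXNRD1 did not move in parallel. TXNRD1-210, whose first exon spans chr12:104286881-104287346, was estimated at 45.1 and 43.4 TPM in DMSO, 78.0 and 91.3 TPM with UCI-1001 and 245 and 227 TPM with UCI-1014. TXNRD1-201, with a first exon at chr12:104286682-104287109, stood at 47.9 and 44.05, 45.2 and 50.2, and 25.1 and 36.7 TPM. Shares were taken of the summed TPM of the gene's transcripts matched to GENCODE. TXNRD1-210 held 32.5% and 31.9% in DMSO, 41.1% and 47.1% with UCI-1001 and 65.2% and 59.4% with UCI-1014. The share of TXNRD1-201 went from 34.5% and 32.4% to 23.8% and 25.9% and then to 6.66% and 9.60%. TXNRD1-207, a 577-base transcript with its own first exon at chr12:104286002-104286160, was at 0 and 1.03 TPM in DMSO, 4.52 and 1.69 TPM with UCI-1001 and 30.3 and 39.7 TPM with UCI-1014, and it was listed at 0 in all 6 Saos-2 libraries. No test was made of single transcripts, and since the longer 2 share much of their sequence, the estimates depend on how kallisto divides reads between them.

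**Figure D3:**
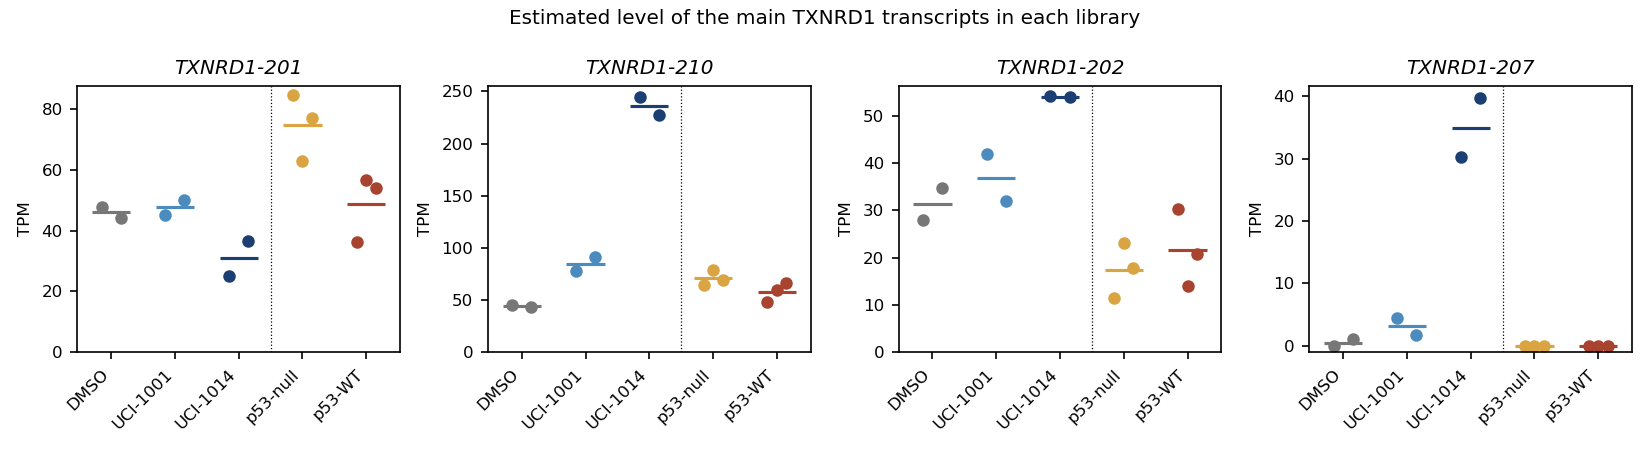
TPM (vertical axes, linear, own scale per panel) of 4 TXNRD1 transcripts in each library; points are libraries, bars are group means and the dotted line parts TOV-112D from Saos-2. TXNRD1-210 and TXNRD1-207 are highest with UCI-1014 (245 and 227 TPM, 30.3 and 39.7 TPM), and within TOV-112D TXNRD1-201 is lowest there (25.1 and 36.7 TPM).

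The promoter windows of the members were searched for the antioxidant response element core TGACNNNGC on both strands in the 250 bases before each RefSeq start. Of all 35116 windows, 10.9% held it. RefSeq windows were found for 9 members (13 windows), and 3 windows of 2 members held the core: that of KEAP1 (with 2 matches) and those of both starts of TXNRD1. The 2 TXNRD1 matches lay 99 and 102 bases before their starts, at chr12:104215680-104215688 and, on the opposite strand, at chr12:104286930-104286938. The second lies within the first exons of TXNRD1-201 and TXNRD1-210 as GENCODE draws them. The stretches chr12:104215670-104215699 and chr12:104286920-104286949 (plus strand, GRCh38.p14) are printed with the core in capitals, since TXNRD1 was called in every alternative tried for both compounds. The call is on the gene as a whole: TXNRD1-204, which begins at the distal start, was at 0 to 0.382 TPM in the TOV-112D libraries:

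TXNRD1 distal start: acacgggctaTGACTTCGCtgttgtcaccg
TXNRD1 proximal start: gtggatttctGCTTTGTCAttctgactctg

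SRXN1, which had the highest log2 fold change after OSGIN1 with UCI-1014, had none of the motifs searched in this window. The heat shock element letters GAANNTTC or TTCNNGAA were found in 11.6% of all windows and in that of 1 member, AKR1C1. The window of SRXN1 (chr20:653201-653450, minus strand, GRCh38.p14) is shown in full, without capitals because nothing matched, and the absence of these letters says nothing of sites elsewhere:

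SRXN1: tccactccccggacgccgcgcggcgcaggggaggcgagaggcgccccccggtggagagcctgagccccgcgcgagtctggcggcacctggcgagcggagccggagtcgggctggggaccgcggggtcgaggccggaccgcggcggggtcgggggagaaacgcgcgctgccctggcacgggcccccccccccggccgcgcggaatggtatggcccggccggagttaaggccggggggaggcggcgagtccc

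Of the 8 members tested in Saos-2, p53-WT cells had 3 higher (TXN, PRDX1 and NQO1) and 1 lower (SRXN1) than p53-null cells, where 66.5% of the 14275 genes tested were called, 33.5% higher and 33% lower, so a call was the usual case. SRXN1 alone among the 8 also passed a log2 fold change of 1 in size, which 30.5% of all genes did (17.9% higher). The median of the 8 was -0.05, beside -0.01 for all genes. With replicates 2 and 3 alone, an alternative chosen after seeing the data, the same 4 were called with NFE2L2 and KEAP1 added (6 of 8), where 74.2% of the 14386 genes in that fit were called.

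SRXN1 was at 131, 112 and 122 CPM in p53-null and at 58.0, 59.5 and 58.7 CPM in p53-WT. The p53-WT values lay within 2 CPM of each other and below every p53-null library. It fell by 1.05 on the log2 scale (SE 0.10, edgeR adjusted p = 4.58e-06), and by 0.98 with replicates 2 and 3 alone (adjusted p = 1.4e-08). TXNRD1, in contrast, measured 535, 486 and 473 CPM in p53-null and 462, 472 and 472 CPM in p53-WT. Its groups lay next to each other without overlapping, and the difference was not called (log2 fold change -0.09, 95% interval -0.31 to 0.13, adjusted p = 0.46).

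TXN had 242, 148 and 176 CPM in p53-null against 342, 260.1 and 254 CPM in p53-WT. Replicate 1 was the highest of both groups, and the groups did not overlap. The log2 fold change was 0.60 ± 0.18 (SE, edgeR adjusted p = 0.0121), and 0.67 with replicates 2 and 3 alone (adjusted p = 2.21e-06). PRDX1 was counted at 857, 737 and 770.3 CPM in p53-null and 1261, 1138 and 1154 CPM in p53-WT, a rise of 0.59 ± 0.11 (adjusted p = 0.000574). NQO1 went from 290.1, 236 and 243 CPM to 435, 386 and 401 CPM, a rise of 0.67 ± 0.11 (adjusted p = 0.000327). In each of these 3 genes all p53-WT libraries exceeded all p53-null libraries.

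NFE2L2 stood at 121, 119 and 112 CPM in p53-null and 90.6, 105 and 102 CPM in p53-WT. Although the groups did not overlap, the difference missed the threshold (log2 fold change -0.24, 95% interval -0.47 to -0.02, edgeR adjusted p = 0.0559). It passed in 4 of 15 alternatives, among them replicates 2 and 3 alone (-0.15, adjusted p = 0.0288) and the fit with the replicate number as a block (-0.25, adjusted p = 0.0474). KEAP1 was at 91.5, 85.4 and 91.9 CPM against 97.1, 75.2 and 78.4 CPM, with overlapping groups (log2 fold change -0.10, adjusted p = 0.472). Without p53-WT replicate 1 its difference was -0.22 (adjusted p = 0.041). OSGIN1 overlapped as well, at 43.4, 46.1 and 51.2 CPM against 50.01, 44.01 and 44.7 CPM (-0.02, 95% interval -0.26 to 0.22), and AKR1C1, with 5 to 13 counts in any Saos-2 library, was not tested.

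**Figure D4:**
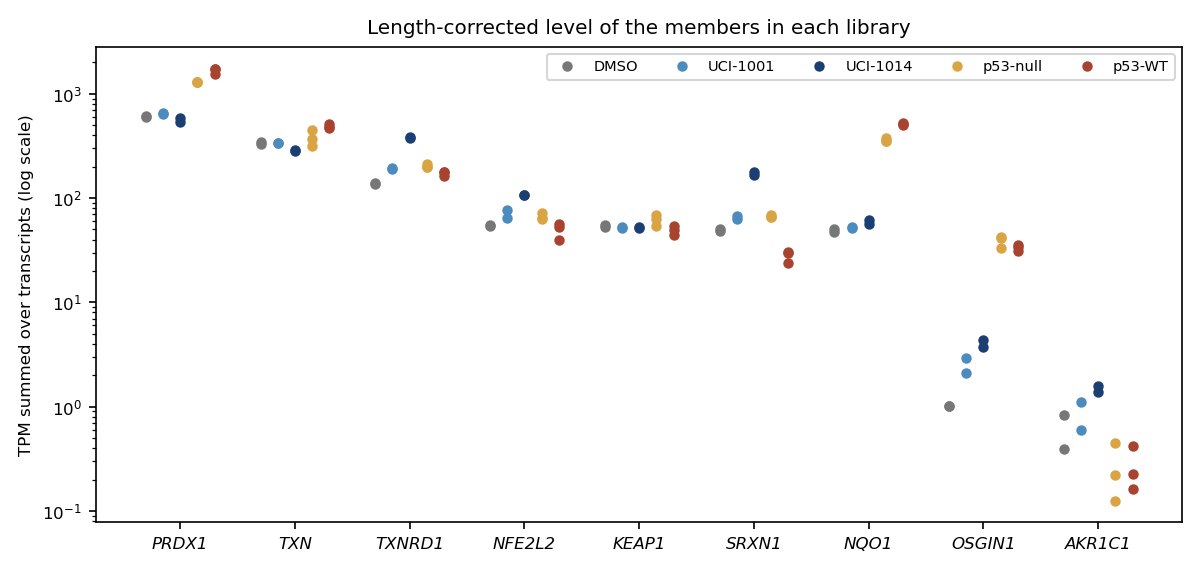
Level per length (vertical axis, TPM summed over the transcripts of each gene, log scale) of 9 members in each library; colours mark the 5 groups and points are libraries. PRDX1 is highest throughout, and NQO1 and OSGIN1 are far lower in all TOV-112D groups than in both Saos-2 groups.

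Levels per length ordered the members. In DMSO-treated TOV-112D cells PRDX1 was highest (602 and 616 TPM), followed by TXN (346 and 330.0) and TXNRD1 (139 and 136). NFE2L2 (55.0 and 53.6), KEAP1 (55.2 and 53.2), SRXN1 (50.2 and 47.9) and NQO1 (47.5 and 50.3) came next; NFE2L2 and KEAP1 could not be ordered, nor could SRXN1 and NQO1, because their libraries overlapped. OSGIN1 (1.02 and 1.01) and AKR1C1 (0.395 and 0.827) were near the bottom. With UCI-1014 the order changed: TXNRD1 at 376 and 382 TPM stood above TXN at 291 and 285 TPM, and SRXN1 at 176 and 167 TPM stood above NFE2L2 at 107 and 107 TPM. In p53-null Saos-2 cells PRDX1 (1295, 1293 and 1299 TPM) again led, and NQO1 (379, 353 and 349 TPM) overlapped with TXN (450, 319 and 366 TPM). In p53-WT, SRXN1 (23.7, 30.2 and 29.5 TPM) was the lowest but AKR1C1 and TXNIP and overlapped with no p53-null value of its own, and its highest library lay just under the lowest of OSGIN1 (31.1 TPM).

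The baseline levels of the cell lines were compared as DMSO-treated TOV-112D against p53-null Saos-2 in one fit of all 12 libraries; tissue of origin, medium, treatment and p53 status cannot be told apart here. All 7 members called were lower in TOV-112D, in a comparison where 74.6% of 15794 genes were called and 37.2% were called lower and 37.4% higher. OSGIN1 differed most (log2 difference -6.08 ± 0.25, SE), followed by NQO1 (-3.24 ± 0.11) and PRDX1 (-1.42 ± 0.094), the 3 members beyond 1 in size, as 42.3% of all genes were (22.4% higher). TXNRD1 (-0.98), SRXN1 (-0.73), NFE2L2 (-0.60) and TXN (-0.53) were lower by less, with edgeR adjusted p-values up to 0.0113, and with limma on log2(TPM + 1) TXN (adjusted p = 0.286) and NFE2L2 (0.0937) were not called. KEAP1 (-0.23, 95% interval -0.45 to -0.01, adjusted p = 0.0586) and AKR1C1 (0.51, adjusted p = 0.394) were not called. On the scale of that fit, NQO1 with UCI-1014 (35.3 and 33.5 CPM) remained far under its p53-null level (302, 248 and 255 CPM).

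Other genes of the pathway were read from 4 lists. Among 15 NRF2 regulators, 4 rose and 1 fell of 14 tested with UCI-1001, and 8 rose and 4 fell with UCI-1014. Of all genes, 9.39% were called higher and 6.36% lower with UCI-1001, and 23.7% and 23.4% with UCI-1014. MAFF, a small MAF partner of NRF2, had 5.41 and 4.55 CPM in DMSO, 28.9 and 35.8 CPM with UCI-1001 and 137 and 137 CPM with UCI-1014 (log2 fold change 2.69 and 4.77, edgeR adjusted p = 2.73e-09 and 1.13e-13). SQSTM1, the autophagy receptor p62 that binds KEAP1, rose by 0.63 and 1.67, and MAFG by 0.51 and 1.13. BACH1, a repressor at antioxidant response elements, rose by 0.41 and 1.39. RBX1, the RING subunit of cullin ligases, fell by 0.21 and 0.96. CUL3, named here after its values were seen, was not called with UCI-1001 (0.10, edgeR adjusted p = 0.0877). With UCI-1014 it rose by 0.26 (adjusted p = 5.22e-05). NFE2L3 and PALB2 fell by 0.23 and 0.29 with UCI-1014.

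Of 32 other NRF2 target genes, 29 were tested, of which 6 rose with UCI-1001 and none fell, and 11 rose and 4 fell with UCI-1014. Among all genes 15.7% were called with UCI-1001, 9.39% higher and 6.36% lower. With UCI-1014 the share was 47.1%, 23.7% higher and 23.4% lower. HMOX1, the heme oxygenase, went from 34.2 and 34.4 CPM to 295 and 351 CPM with UCI-1001 and to 1229 and 1192 CPM with UCI-1014 (log2 fold change 3.24 and 5.14, edgeR adjusted p = 8.61e-13 and 1.31e-15). GCLM, the modifier subunit of the enzyme that starts glutathione synthesis, rose by 0.79 and 2.05, its catalytic partner GCLC by 0.37 and 1.25, and the cystine transporter SLC7A11 by 0.59 and 1.07. PGD, FECH and TALDO1 fell by 0.25, 0.23 and 0.20 with UCI-1014. The median of the list was 0.08 and 0.13, and 1 and 5 of its genes rose by more than 1, as did 1.18% and 4.51% of all genes.

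Of the 20 thioredoxin system partners, none was called with UCI-1001, and 3 rose and 7 fell with UCI-1014, none by more than 1 on the log2 scale. Of all genes, 15.7% were called with UCI-1001, 9.39% higher and 6.36% lower. With UCI-1014 the share was 47.1%, 23.7% higher and 23.4% lower, so these calls are no sign of a response particular to the partners. GSR, glutathione reductase, rose by 0.37 and TXNL1 by 0.36, while TXNRD3 fell by 0.46, GLRX5 by 0.41 and NXN by 0.38. Of the 7 alpha-arrestin and glucose sensing genes, 2 rose with UCI-1001 and 3 rose and 1 fell with UCI-1014, beside the same shares of all genes. ARRDC3 rose from 4.90 and 6.06 CPM to 22.1 and 27.4 CPM with UCI-1001 and to 24.4 and 20.7 CPM with UCI-1014 (log2 fold change 2.17 and 2.04). ARRDC4 rose by 0.79 and 0.94, and MLXIP fell by 0.24 with UCI-1014.

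**Figure D5:**
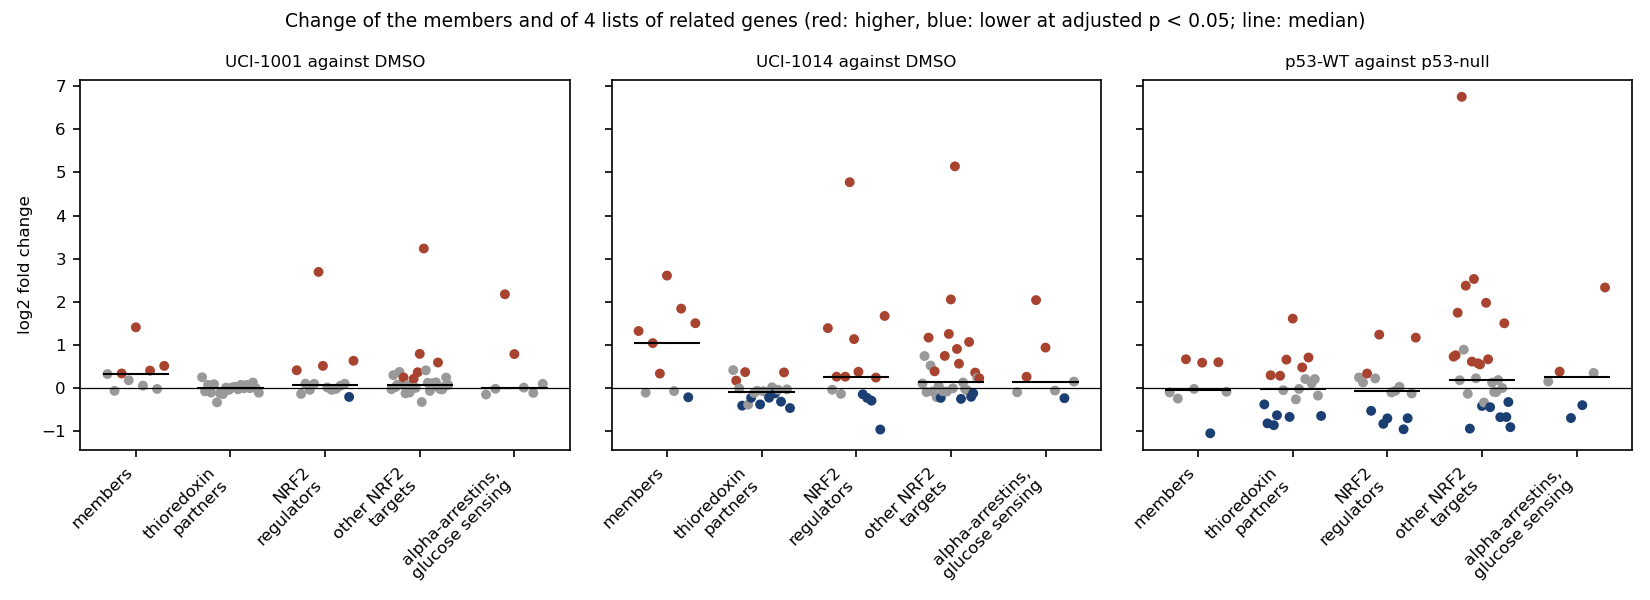
Log2 fold change (vertical axis) of the members and of the tested genes of 4 lists with UCI-1001, UCI-1014 and p53-WT; points are genes, colour marks calls at an edgeR adjusted p under 0.05 and lines are medians. The highest points with both compounds are HMOX1 (3.24 and 5.14) and MAFF (2.69 and 4.77), and the member median with UCI-1014 is 1.04.

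UCI-1014 exceeded UCI-1001 in 8 of the 14 regulators and 8 of the 29 other targets, and was lower in 4 and 2. It was higher in 3 and lower in 7 of the 20 thioredoxin system partners. Of all genes, 17.1% were called higher and 13.9% lower. MAFF (2.08), HMOX1 (1.91), GCLM (1.26) and SQSTM1 (1.04) had log2 differences above 1 with edgeR adjusted p-values up to 1.91e-09, as had AKR1C2 at few reads (1.09, adjusted p = 0.0456). ARRDC2 was the one alpha-arrestin list gene that differed (0.28, adjusted p = 0.0171). For ARRDC3, named here after its values were seen, the log2 difference was -0.14 (95% interval -0.38 to 0.10).

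In p53-WT Saos-2 cells the lists were mixed, with 6 higher and 6 lower of 19 thioredoxin system partners, 3 and 5 of 15 regulators, 12 and 7 of 29 other targets and 2 and 2 of 6 alpha-arrestin list genes. Of all 14275 genes tested, 33.5% were called higher and 33% lower, so a call was again the usual case. AKR1B10, an aldo-keto reductase, rose from 0.151 ± 0.049 to 17.0 ± 1.75 CPM (SD, n = 3), with the lower level near the floor of 3 counts. FECH rose by 2.53 and BLVRB by 2.37 on the log2 scale, and HMOX1, named here after its values were seen, by 1.98 (51.4 ± 4.06 to 202 ± 14.4 CPM, SD, n = 3). SQSTM1 rose by 1.17 and GSK3B, which marks NRF2 for degradation, by 1.24, while MAFF and MAFG fell by 0.83 and 0.70. ARRDC3 fell by 0.70 and SLC7A11 by 0.68. NXN rose by 1.61, TXN2 by 0.71, and GLRX5 fell by 0.86; the edgeR adjusted p-values of the genes named here were at most 0.0186.

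Between the lines at baseline the lists went both ways. In TOV-112D, SLC7A11 was higher by 4.38 on the log2 scale and NXN by 2.43, and PRDX2 stood at 9.75 ± 0.696 CPM where p53-null cells had 0.0473 ± 0.048 CPM (SD, n = 2 and 3). ARRDC4 was higher by 5.77, at 5.54 CPM against 0.0946 CPM in p53-null cells, the latter near the floor of 3 counts. NQO2 was lower by a log2 difference of -4.38, ARRDC3 by -3.46, MSRA by -2.37, MAFF by -2.14 and SQSTM1 by -1.87. In all, 7 partners, 5 regulators, 10 other targets and 4 alpha-arrestin list genes were higher in TOV-112D, and 10, 5, 16 and 2 were lower. The numbers tested were 20, 15, 31 and 7. Of all 15794 genes tested, 37.4% were called higher and 37.2% lower.

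The genes most like 2 of the members were taken as those with the smallest root mean square difference over the log2 fold changes of UCI-1001, UCI-1014 and p53-WT, among 11790 genes. For TXNRD1 they were COQ10B (0.040), ZNF548 (0.064) and MAP1LC3B (0.069). For SRXN1, which combined a rise with both compounds and a fall in p53-WT, the nearest were FKBP4 (0.152), GLA (0.158) and FAM210A (0.192), with fold changes of 1.61 to 1.73 with UCI-1014 and -1.07 to -1.25 in p53-WT on the log2 scale. The 2 compound comparisons share their control libraries, and nothing follows from the likeness about shared control.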

How the data were processed

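Total RNA was sequenced from 6 TOV-112D and 6 Saos-2 libraries. The authors quantified reads against GRCh38 with kallisto 0.48.0, summed the estimated counts per Ensembl gene and deposited whole-number counts per gene, not normalized. Per library they also deposited estimated counts and TPM per transcript, of which TPM was summed per gene for levels. Of 187626 transcripts, 165858 (88.4%) matched GENCODE release 44, and only these entered the TPM sums and shares. For the members, summed transcript counts and gene counts of a library differed by up to 244.3 counts. Counts were summed by symbol; each member has 1 identifier. The members and lists were chosen with earlier results of these data known.

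edgeR 4.0.16 (TMM, filterByExpr, quasi-likelihood test, Benjamini-Hochberg over all genes tested) was fitted per cell line, and over all 12 libraries between lines, in R 4.3.3; the tests were also tested on simulated data. Named genes were the 10 members and, per list and comparison, up to 3 called genes with the largest change each way at a mean of at least 1 CPM; values of such a gene under the other compound, and of AKR1C2, were added after they were seen. RefSeq promoter windows (GRCh38.p14) were searched by exact match. Alternatives used relative log expression scaling, other filters, unsummed identifiers, other sets of libraries, a replicate block, DESeq2 1.42.0 and limma 3.58.1 on log2(TPM + 1). Depth was 17762027 to 24629558 counts; floors cover counting error only. Whether counting used strand is not given in the sources used here. Figures used Python 3.11.15 with matplotlib 3.10.9. The level of the targeted gene is not reported here.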

Additional observations from a re-analysis of the deposited data

How the results depend on the processing

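Of the alternatives, 624 of the member log2 fold changes kept their direction and their side of the threshold, 25 lost a call, 14 gained one and 9 changed sign; none of these 9 was called. With all 12 libraries in one fit, the genes called were 308 for UCI-1001, 3421 for UCI-1014 and 937 for UCI-1014 against UCI-1001, and the members called were 1 and 4 for the first 2. With limma on log2(TPM + 1) the genes were 194, 4014 and 1682 and the UCI-1001 members 1, and with DESeq2 the genes were 1139 for UCI-1001 and 2636 between the compounds. Leaving out 1 library gave 952 (without DMSO replicate 1) to 2538 genes for UCI-1001, which was 1020 without DMSO replicate 2 and 1188 without UCI-1001 replicate 2. The share of called genes that were higher was 83.1% for UCI-1001 and 70.1% between the compounds with all 12 libraries, against 59.6% and 55.2%, and 88.7% for UCI-1001, 38.7% for p53-WT and 61.7% between the lines with limma, against 50.4% and 50.2% for the last 2. The cause of these shifts was not tested.

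The changes of sign were AKR1C1 between the lines (-0.51 without DMSO replicate 2, to 1.125 without DMSO replicate 1) and with UCI-1001 (-0.29 without DMSO replicate 1, to 1.35 without DMSO replicate 2), OSGIN1 in p53-WT (0.0023 with relative log expression scaling, and, leaving out 1 library, from -0.080 without p53-WT replicate 1 to 0.054 without p53-null replicate 3, with 0.022 and 0.0063 without p53-WT replicates 2 and 3), PRDX1 with UCI-1014 (-0.149 without UCI-1014 replicate 2, where it was called, to 0.022 without UCI-1014 replicate 1) and TXN with UCI-1001 (0.0057 with limma and -0.047 to 0.0037 without DMSO replicates 2 and 1). Replicate numbers share only a number: same-numbered libraries correlated at 0.063, -0.03 and -0.164 in TOV-112D and at 0.139, 0.092 and 0.075 in Saos-2, where not every p53-WT library correlated best with its own number. With the replicate number as a block, 4, 7 and 5 members were called in the TOV-112D comparisons and 5 in p53-WT (NFE2L2 added), and 1774, 6307, 3882 and 9814 genes. Depth limits AKR1C1, with at most 30 counts.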
